A study of Nothobranchius furzeri with 15 samples.

Results

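Neurons are told apart by the transmitter they make and load into synaptic vesicles, and 6 genes of that kind were looked for in RNA sequencing counts from 3 organs (brain, liver and skin) of Nothobranchius furzeri, a short-lived annual fish. The genes were chosen by the zebrafish gene identifier that the authors attached to each entry of a killifish transcript catalogue. Of the 6 identifiers, 5 were found, each on a single entry among 18311, and in each of these entries the zebrafish gene is a best bidirectional hit. The 5 genes are gad1b (ENSDARG00000027419), gad2 (ENSDARG00000015537), slc32a1 (ENSDARG00000059775), th (ENSDARG00000030621) and tph2 (ENSDARG00000057239). The sixth identifier, ENSDARG00000041150 for slc17a6b, is on no catalogue entry, so no value is given for it. The names are those of the zebrafish genes in the selection, because the files hold identifiers only.

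GABA, the main inhibitory transmitter of the vertebrate brain, is made from glutamate by glutamate decarboxylases, the enzymes that gad1 and gad2 genes encode. The vesicular transporter of slc32a1 loads GABA and glycine into synaptic vesicles, and slc17a6 genes encode a vesicular transporter for glutamate. Tyrosine hydroxylase, from th, catalyses the rate-limiting step towards dopamine and noradrenaline, and tryptophan hydroxylase, from tph2, that of serotonin in neurons. In vertebrate brains GABA neurons are widespread, whereas neurons that make dopamine or serotonin lie in small groups of cells.

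All fish belonged to the strain GRZ and were 12 weeks old, and total RNA came from dissected organs. The 15 samples were 5 brains (numbers 10, 11, 13, 14 and 15 in the sample titles), 5 livers (the same numbers) and 5 skins (numbers 5, 6, 7, 13 and 14). The labels describe no treatment or mutation, and no subdivision of the brain. Whether equal numbers mark the same fish is not stated.

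Total counts per library ran from 19594628 to 30801799 in brain, 20564547 to 26078006 in liver and 17653543 to 22234115 in skin, and brain 10 was the deepest. Scaling between libraries by TMM, which assumes that most genes do not differ, gave factors of 1.61 to 1.79 in brain, 0.546 to 0.726 in liver and 0.898 to 1.18 in skin. Skin 7 stood apart from the other skins, with 410 entries at least 4-fold above their mean, against at most 12 in another skin. Liver 15 had 189 and liver 14 had 139 such entries, against at most 82 in another liver. Tissue identity was not checked against marker genes. These were to be matched by symbol through the reference table, where the catalogue's identifiers matched no gene.

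The 5 genes were highest in brain and spanned a wide range of levels there. Levels are given first as RPKM, the deposited reads per kilobase of entry scaled to the library total, which allow genes to be compared with each other. They carry no TMM scaling, so percentages of the brain level in RPKM differ from the TMM-scaled folds given further on. Mean RPKM in brain was 163 ± 29.5 for gad1b, 122 ± 36.0 for gad2, 57.1 ± 6.17 for slc32a1, 5.63 ± 0.120 for th and 1.98 ± 1.01 for tph2 (SD, n = 5 each). By mean RPKM in brain, gad1b ranked 322nd, gad2 449th and slc32a1 1094th among the 18311 entries, while th ranked 10289th and tph2 13377th. The order gad1b, gad2, slc32a1, th, tph2 held within each of the 5 brains. The ranges of gad1b and gad2 over the brains overlapped, and those of the other neighbours in this order did not. In a whole organ, few cells of a type and little RNA per cell cannot be told apart.

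**Figure D1:**
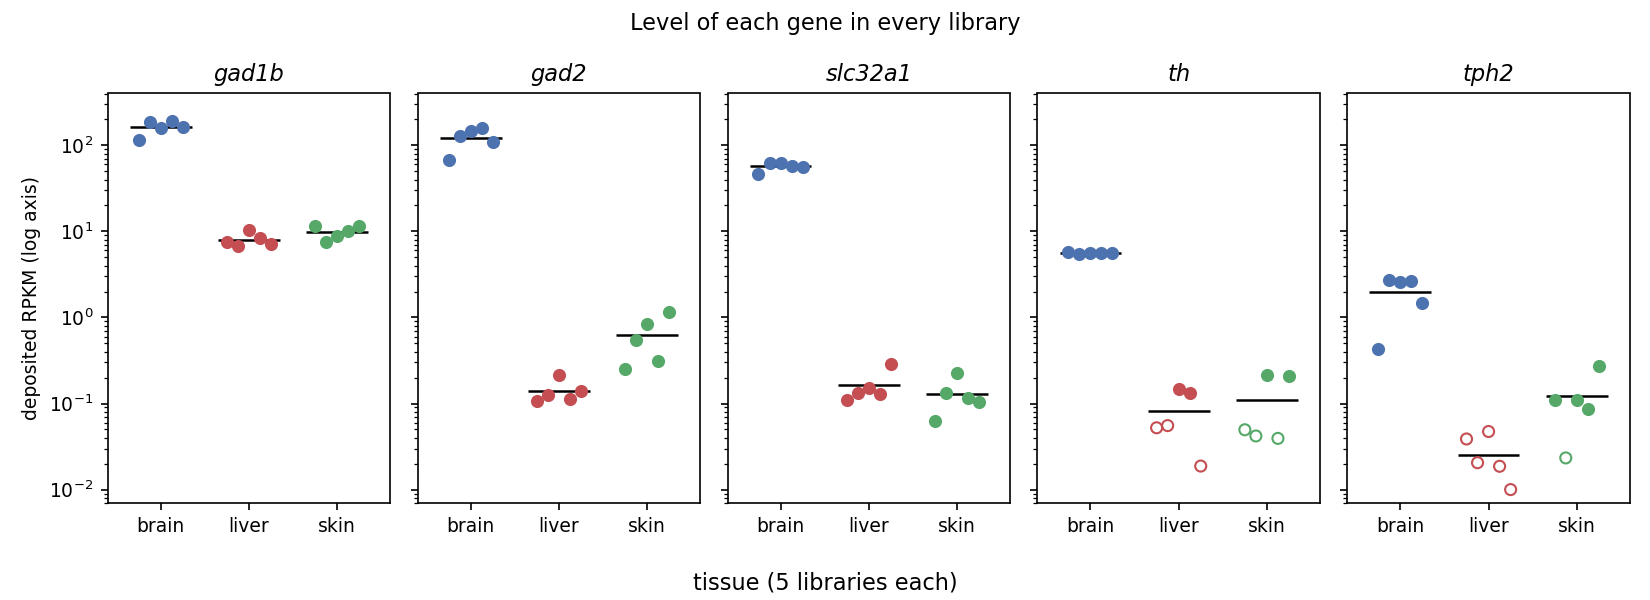
Deposited RPKM (log axis) of each gene in every library of brain, liver and skin; points are libraries, lines are means of 5, and open symbols mark libraries with at most 3 counts of the gene, a count of 0 being drawn as the lowest symbol. Brains lie above livers and skins for each of the 5 genes, gad1b stays at 6.81 RPKM or more in liver and skin, and tph2 is low in brain 10. The share of all entries with brains so placed is not given here. RPKM carry no TMM scaling, and without it 84.2% of entries called for brain over liver were higher in brain. For brain over skin this share was 70.4%.

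The abundant decarboxylase gene gad1b was measured at 116, 185, 159.7, 192 and 163 RPKM in brains 10, 11, 13, 14 and 15. In livers of the same numbers it stood at 7.51, 6.81, 10.4, 8.31 and 7.15 RPKM. In skins 5, 6, 7, 13 and 14 it stood at 11.7, 7.53, 8.88, 10.1 and 11.4 RPKM. No brain value came near those of the other tissues, whose ranges overlapped each other. Liver held 4.93% and skin 6.09% of the mean brain RPKM, from 731 to 983 counts per liver library and 712 to 1100 per skin library. With TMM scaling the fitted ratio to brain was 0.141 for liver and 0.101 for skin, so the order of liver and skin turned. Among all entries gad1b ranked 4155th in liver and 5097th in skin by mean RPKM.

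The second decarboxylase gene, gad2, was measured at 67.0, 129, 146, 159 and 109 RPKM in brains 10, 11, 13, 14 and 15. In livers 10, 11, 13, 14 and 15 it stood at 0.107, 0.125, 0.216, 0.114 and 0.139 RPKM. In skins 5, 6, 7, 13 and 14 it stood at 0.252, 0.5499, 0.8501, 0.315 and 1.16 RPKM. The brains were far above both other tissues, and skins 7 and 14 were the highest skins. Liver held 0.115% and skin 0.514% of the mean brain RPKM of gad2, from 20 to 33 counts per liver library and 33 to 183 per skin library.

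The vesicular transporter gene slc32a1 was measured at 46.8, 61.7, 62.0, 58.3 and 56.7 RPKM in brains 10, 11, 13, 14 and 15. Livers 10, 11, 13, 14 and 15 had 0.111, 0.133, 0.153, 0.128 and 0.286 RPKM of slc32a1. Skins 5, 6, 7, 13 and 14 had 0.0630, 0.133, 0.225, 0.117 and 0.105 RPKM. Liver and skin overlapped, with liver 15 the highest liver and skin 7 the highest skin. Their means were 0.284% and 0.225% of the brain mean, from 103 counts over the 5 livers and 74 counts over the 5 skins.

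Transcripts of th were measured at 5.79, 5.49, 5.68, 5.53 and 5.64 RPKM in brains 10, 11, 13, 14 and 15, from 246 to 408 counts per brain library. Livers 10, 11, 13, 14 and 15 held 3, 3, 7, 8 and 1 counts of th. Skins 5, 6, 7, 13 and 14 held 2, 2, 11, 2 and 10 counts. The 5 brains were nearly equal in RPKM, with an SD of 2.14% of the mean, less than the 5.89% that counting error alone gives. So close an equality cannot be read as constancy of th. Outside brain, only livers 13 and 14 and skins 7 and 14 exceeded 3 counts. A count of 3 stands for 0.0503 to 0.0638 RPKM of th in a liver library and 0.0590 to 0.0743 in a skin library, and lower levels could not be told from 0 at this depth. Intervals and this floor of 3 counts cover counting error only.

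Transcripts of tph2 were the scarcest of the 5 in brain, at 0.426, 2.71, 2.61, 2.68 and 1.47 RPKM in brains 10, 11, 13, 14 and 15, from 27, 109, 112, 111 and 70 counts. Livers 10, 11, 13, 14 and 15 held 2, 1, 2, 1 and 0 counts of tph2, so that no liver exceeded the floor. Skins 5, 6, 7, 13 and 14 held 4, 1, 5, 4 and 12 counts. Skin 14 was the highest skin, at 0.275 RPKM, and the lowest brain, brain 10, lay above it, but their 95% counting intervals overlapped (0.281 to 0.620 RPKM in brain 10, 0.142 to 0.481 RPKM in skin 14).

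Brain was compared with liver and with skin to ask how far these genes are set apart by organ. Counts were tested with edgeR's quasi-likelihood test on the whole catalogue, with Benjamini-Hochberg adjustment over the 16611 entries that passed a filter on low counts and a threshold of 0.05. All 5 genes were higher in brain than in liver, where 37.8% of all entries tested were called higher in brain and 36% higher in liver. All 5 were also higher in brain than in skin, where 34.7% of entries were called higher in brain and 35.3% higher in skin. Of the 5, th and tph2 passed the filter only through brain: none of the livers, 2 skins for th and 1 skin for tph2 reached its minimum. Their calls were therefore in part fixed by the filter. The other genes, gad1b, gad2 and slc32a1, reached the minimum in all 5 livers and in at least 4 skins. Both comparisons use the same brain libraries.

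On the TMM-scaled CPM (counts-per-million) scale, gad1b averaged 439.9 ± 69.3 in brain, against 62.1 ± 15.4 in the livers and 44.6 ± 5.79 in the skins (SD, n = 5 each). Set against liver, its log2 fold change in brain was 2.83 (SE 0.19, adjusted p = 1.37e-09 by edgeR). Set against skin it was 3.30 (SE 0.20, adjusted p = 3.5e-10 by edgeR). This was a 7.09-fold and a 9.86-fold difference, and 83.5% and 90.02% of entries tested had a lower fold change in those comparisons. For brain over liver gad1b thus had the lowest fold change of the 5 genes.

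Brain and liver differed far more in gad2, which averaged 536 ± 148 CPM in brain and 1.77 ± 0.663 CPM in liver. On the log2 scale the fold change was 8.25 (SE 0.47, adjusted p = 1.37e-10 by edgeR), the 213th highest of 16611. Against skin, at 4.498 ± 2.36 CPM, the log2 fold change of gad2 was 6.89 (SE 0.43, edgeR adjusted p = 6.16e-10), the 380th highest. It was 7.51 without skins 7 and 14, a setting added after their high values had been seen.

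Transcripts of slc32a1 averaged 184 ± 19.7 CPM in brain, against 1.43 ± 0.427 CPM in liver and 0.701 ± 0.336 CPM in skin. The log2 fold change over liver was 6.995 (SE 0.30, adjusted p = 8.06e-12 by edgeR), and that over skin 8.02 (SE 0.32, adjusted p = 5.56e-12 by edgeR). Against skin slc32a1 had the 154th highest fold change of all entries and the highest of the 5 genes.

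For the scarcer genes, th averaged 7.69 ± 0.448 CPM in brain and its log2 fold change was 4.58 over liver (SE 0.46, edgeR adjusted p = 1.55e-07) and 4.91 over skin (SE 0.46, edgeR adjusted p = 6.37e-08). Without skins 7 and 14 the log2 fold change of th over skin was 6.14. These were the skins with the most th, so leaving them out, a setting chosen after their values had been seen, raises it by construction. Pooled over libraries, 1479 counts in brain stood against 22 in liver, which after scaling is a 24.9-fold ratio (95% counting interval 16.4 to 39.9). Against the 27 counts in skin the pooled ratio of th was 29.96 (20.5 to 45.6).

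The serotonin gene tph2 averaged 2.41 ± 1.197 CPM in brain, with a log2 fold change of 3.28 over skin (SE 0.54, edgeR adjusted p = 4.57e-05). Without skins 7 and 14, the skins with the most tph2, it was 3.90, a rise that leaving them out gives by construction. In TMM-scaled CPM the lowest brain, brain 10 at 0.534, lay little above the highest skin, skin 14 at 0.482. Against liver the fit gave a log2 fold change of 4.72 (SE 0.67, adjusted p = 8.18e-06 by edgeR). Each liver lay under the floor, where such a fitted value moves with the prior count. Pooled counts of tph2, 429 in brain and 6 in liver, differed 26.5-fold after scaling (95% counting interval 12.1 to 72.7).

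The size of each fold depended on the scaling, and its direction did not. Without TMM the median log2 fold change of all entries was 1.49 for brain over liver, against 0.013 with it, and 0.76 for brain over skin, against 0.027 with it. The log2 fold changes for brain over liver without scaling were 4.34 for gad1b, 9.76 for gad2, 8.45 for slc32a1, 6.07 for th and 6.17 for tph2. For brain over skin they were 4.04, 7.60, 8.77, 5.62 and 3.99 in the same order of genes.

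**Figure D2:**
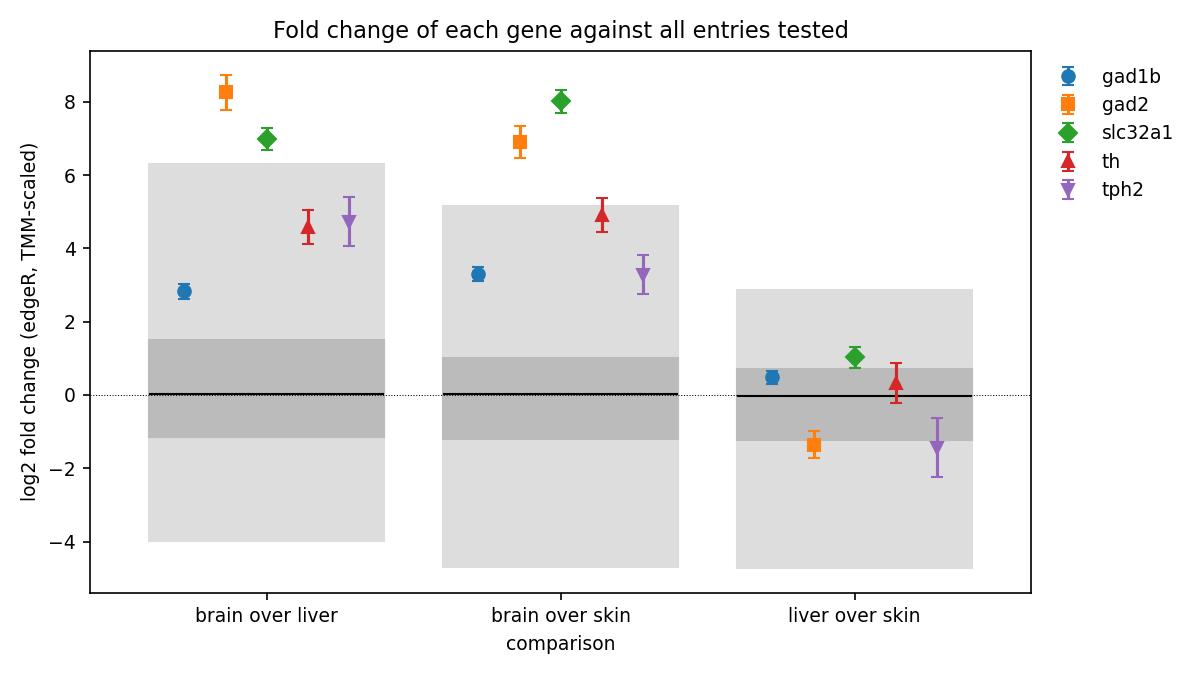
Log2 fold change (edgeR, TMM-scaled) of each gene in 3 comparisons, with bars of 1 SE; light grey boxes span the 5th to 95th percentile of all 16611 entries tested, dark grey boxes the 25th to 75th, and black lines their medians. In both comparisons with brain, gad2 and slc32a1 lie above the light box and gad1b lies at 2.83 and 3.30, while for liver over skin the genes lie on both sides of 0.

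Liver and skin were compared next, to describe the low levels outside the brain. Of the 5 genes, 3 passed the test, where 62.8% of all entries did. The genes gad1b and slc32a1 were higher in liver (29.3% of entries were called higher in liver) and gad2 was lower in liver (33.5% of entries were called higher in skin). On the log2 scale the fold change of liver over skin was 0.48 for gad1b (SE 0.18, edgeR adjusted p = 0.0320), 1.02 for slc32a1 (SE 0.28, edgeR adjusted p = 0.00517) and -1.36 for gad2 (SE 0.37, edgeR adjusted p = 0.00439). It was 0.33 for th (SE 0.54, edgeR adjusted p = 0.613) and -1.44 for tph2 (SE 0.80, edgeR adjusted p = 0.128), which did not pass.

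Of these smaller differences, those of gad1b and slc32a1 depended on the scaling, and the call of gad1b also on single libraries. Without TMM the median log2 fold change of all entries for liver over skin was -0.78, against -0.031 with it. Without scaling the log2 fold change of gad1b for liver over skin was -0.30 (edgeR adjusted p = 0.159) and mean RPKM was 8.04 ± 1.45 in liver and 9.92 ± 1.74 in skin, so its direction turned. The edgeR adjusted p of gad1b was also 0.114 without liver 13, 0.0501 without liver 14, 0.0747 without skin 6, 0.0667 without skin 7 and 0.0949 without skins 7 and 14. For slc32a1 the log2 fold change without scaling was 0.32 (edgeR adjusted p = 0.374). The difference in gad2 kept its direction under each scaling, at -2.16 without it (edgeR adjusted p = 0.000131). With any 1 liver or skin left out, gad2 and slc32a1 still passed. With the title number as a replicate block slc32a1 alone passed (edgeR adjusted p = 0.00533). The numbers of skins 5, 6 and 7 occur in no other tissue, so in that fit liver was compared with skins 13 and 14 only. In that fit gad2 stood at -1.13 (edgeR adjusted p = 0.0661) and gad1b at 0.56 (edgeR adjusted p = 0.124). Over all entries it called 7991, against 10434 without the block. Skins 7 and 14 had 6.25 and 7.34 CPM of gad2, against 1.796 to 4.54 CPM in the other skins, and without both the log2 fold change was -0.72 (edgeR adjusted p = 0.0885). That setting was added after these values had been seen. Leaving out the skins with the most gad2 shrinks the difference by construction, so the lost call says little. Without skin 7, liver 14 and liver 15 the log2 fold change of gad2 was -1.04 (edgeR adjusted p = 0.0653). On log2 RPKM it was -1.45 with a pseudocount of 0.1 (limma adjusted p = 0.000806) and -0.48 with a pseudocount of 1 (limma adjusted p = 0.0512).

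The values of th and tph2 rested on few counts. Without skins 7 and 14 the log2 fold change of th for liver over skin was 1.58 (edgeR adjusted p = 0.0306), at 1 to 8 counts per liver and 2 counts in each of the other skins. These were the skins with the most th, and the setting was added after their values had been seen. Leaving them out raises liver over skin by construction, so that p gives no support. With all skins the log2 fold change of th for liver over skin was 0.33 (edgeR adjusted p = 0.613). Without scaling that of tph2 was -2.18 (edgeR adjusted p = 0.0211), and pooled counts of 6 in liver and 26 in skin gave a scaled ratio of 0.3403 (95% counting interval 0.115 to 0.845). Skin 14 held 12 of these 26 counts, and without it the log2 fold change of tph2 was -0.89 (edgeR adjusted p = 0.379).

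Ratios between genes within a library do not depend on the scaling of libraries, and they set brain sharply apart from liver and skin. The RPKM of gad1b divided by that of gad2 was 1.73, 1.44, 1.095, 1.21 and 1.501 in brains 10, 11, 13, 14 and 15. In livers 10, 11, 13, 14 and 15 it was 69.9, 54.3, 48.2, 73.1 and 51.5. In skins 5, 6, 7, 13 and 14 it was 46.2, 13.7, 10.4, 32.04 and 9.83. The 3 tissues did not overlap: decarboxylase transcripts were divided between both genes in brain and were nearly all of gad1b in liver. Between liver and skin the gap was narrow, from 48.2 in liver 13 to 46.2 in skin 5. Each of these libraries held 33 counts of gad2. The counting intervals of gad2 overlapped, at 0.149 to 0.304 RPKM in liver 13 and 0.174 to 0.354 RPKM in skin 5. The full separation of liver from skin was therefore not beyond counting error.

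The test of these ratios was chosen after they had been seen, and tissues without overlap always give its smallest p. Its p-values here therefore repeat the separation and add no support to it. By 2-sided exact permutation tests on the log2 ratio, brain differed from liver by -5.41 and from skin by -3.74, and liver from skin by 1.67 (p = 0.00794 each, the smallest that 252 arrangements allow; adjusted p = 0.00952 over 6 tests; n = 5 per tissue). For liver against skin this smallest p rests on the order of liver 13 and skin 5, which counting error could reverse. The skins spread widely. The 3 with the lowest ratios, skins 14, 7 and 6, had the highest level of gad2, by which the ratio is divided. Because gad1b and gad2 encode related enzymes and the treatment of reads that match several entries is not given in the sources used here, some reads could have been assigned to the other gene.

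The transporter slc32a1 relative to both decarboxylase genes together was 0.256, 0.197, 0.203, 0.166 and 0.209 by RPKM in brains 10, 11, 13, 14 and 15. It was 0.0144 to 0.0393 in liver and 0.00529 to 0.0232 in skin. Brain therefore held 10.8 times the liver ratio and 18.0 times the skin ratio on the log2 mean (exact permutation tests, p = 0.00794 and adjusted p = 0.00952 each, n = 5 per tissue). As brain overlapped neither tissue, these p-values too were fixed by the separation already seen. Liver and skin overlapped in this ratio, and their difference did not pass (exact permutation test, p = 0.175, adjusted p = 0.175). Their log2 difference was 0.73. Outside brain the sum was nearly all gad1b, with mean RPKM of 8.04 for gad1b and 0.140 for gad2 in liver. In skin these means were 9.92 and 0.626, so outside brain the ratio is largely that of slc32a1 to gad1b. Set against gad2 alone, slc32a1 had the lower mean RPKM in brain (57.1 against 122) and skin (0.129 against 0.626). In liver it had the higher (0.162 against 0.140).

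**Figure D3:**
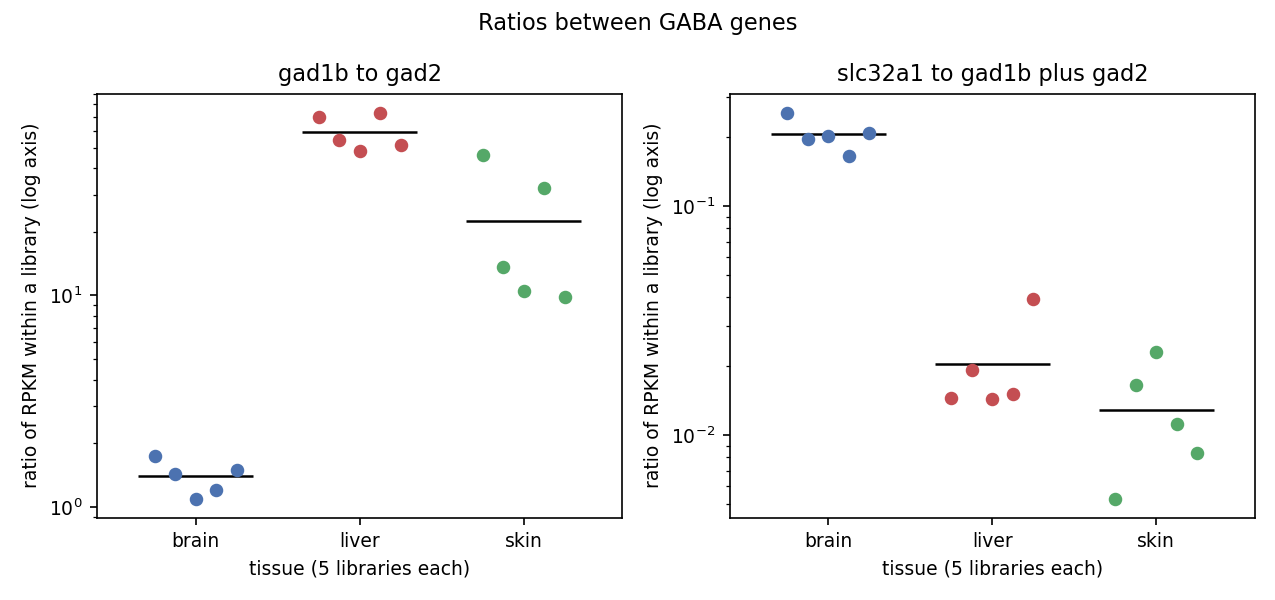
Ratios of RPKM within each library (log axes) of gad1b to gad2 and of slc32a1 to the sum of gad1b and gad2, for brain, liver and skin; points are libraries and lines are means of 5. The first ratio is 1.095 to 1.73 in brain, 48.2 to 73.1 in liver and 9.83 to 46.2 in skin, and the second is at least 0.166 in brain and at most 0.0393 elsewhere.

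In brain the order of gad1b and gad2 depended on the entry length. The entry of gad2 is 7413 bases long and that of gad1b 4534, by the length that deposited counts and RPKM imply. Per length gad1b was the higher in 5 of 5 brains, with a mean ratio of 1.39 ± 0.252 (SD, n = 5). By counts alone gad1b exceeded gad2 in 1 of the 5 brains, brain 10, and the mean ratio was 0.853. The entries of slc32a1, th and tph2 are 5393, 2286 and 2056 bases long, and their places in the order were the same by counts.

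Between brains, the labels give no groups, so differences were described without a test. On TMM-scaled CPM the coefficient of variation over the 5 brains was 5.82% for th, 10.7% for slc32a1, 15.7% for gad1b, 27.5% for gad2 and 49.8% for tph2. The median over the 14673 tested entries of at least 1 CPM in brain was 15.1%. Thus gad1b was near the middle of all entries, gad2 varied more than 86.03% of them and tph2 more than 97.7%. Only 5.29% of entries varied less than th, whose spread was no larger than the 5.89% that counting error alone gives. The corresponding counting error was 0.780% for gad1b, 0.717% for gad2, 1.203% for slc32a1 and 11.9% for tph2, so that these genes varied beyond counting error.

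Brain 10 had the lowest level of 4 of the 5 genes, all but th. In CPM gad1b stood at 321 in brain 10, against 443 to 489.8 in the other brains, 31.7% below their mean. The level of gad2 in brain 10 was 303 CPM, against 500.3 to 662 in the others, 49.1% below their mean. For slc32a1 the values were 154 CPM in brain 10 and 176 to 205 in the others, 19.6% below their mean. For gad1b and gad2 the gap between brain 10 and the next brain exceeded the whole range of the other brains.

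As a percentage below the mean of the other brains, the difference was largest for tph2. It stood at 0.534 CPM in brain 10 (95% counting interval 0.352 to 0.776) and 1.88, 3.25, 3.29 and 3.08 CPM in brains 15, 11, 13 and 14. Brain 10 was 81.4% below the mean of the others. Of the 14673 entries of at least 1 CPM in brain, 16 lay further below that mean in brain 10 than tph2 did, 326 lay further below it than gad2 did, 1191 than gad1b and 2851 than slc32a1. Brain 15 was next to lowest for tph2, with an interval of 1.46 to 2.37 CPM that did not reach those of brains 11, 13 and 14. The catecholamine gene th was highest in brain 10, at 8.06 CPM (7.30 to 8.89), and lowest in brain 14, at 7.09 CPM (6.24 to 8.01), and these intervals overlapped.

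Brain 10 was the deepest library, and it had 19 entries at least 4-fold above the mean of the other brains, against 0 to 6 in another brain. It had 21 entries at least 4-fold below that mean, against 3 to 37 in another brain, brain 14 having the 37. At least 2-fold, 129 entries lay above it and 222 below, against 24 to 107 and 26 to 207 in another brain. The mean correlation with the other brains was 0.9800 for brain 10 and 0.9789 for brain 13, the lowest. Brain 10 held the lowest value of the 5 brains for 25.1% of entries and the highest for 26.1%, while brain 13 held the lowest for 27.96% and the highest for 30.99%. Brain 13 was the highest for 3 of the 5 genes, gad2, slc32a1 and tph2, and gad1b was highest in brain 11. The part of depth in the values of brain 10 was not tested.

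**Figure D4:**
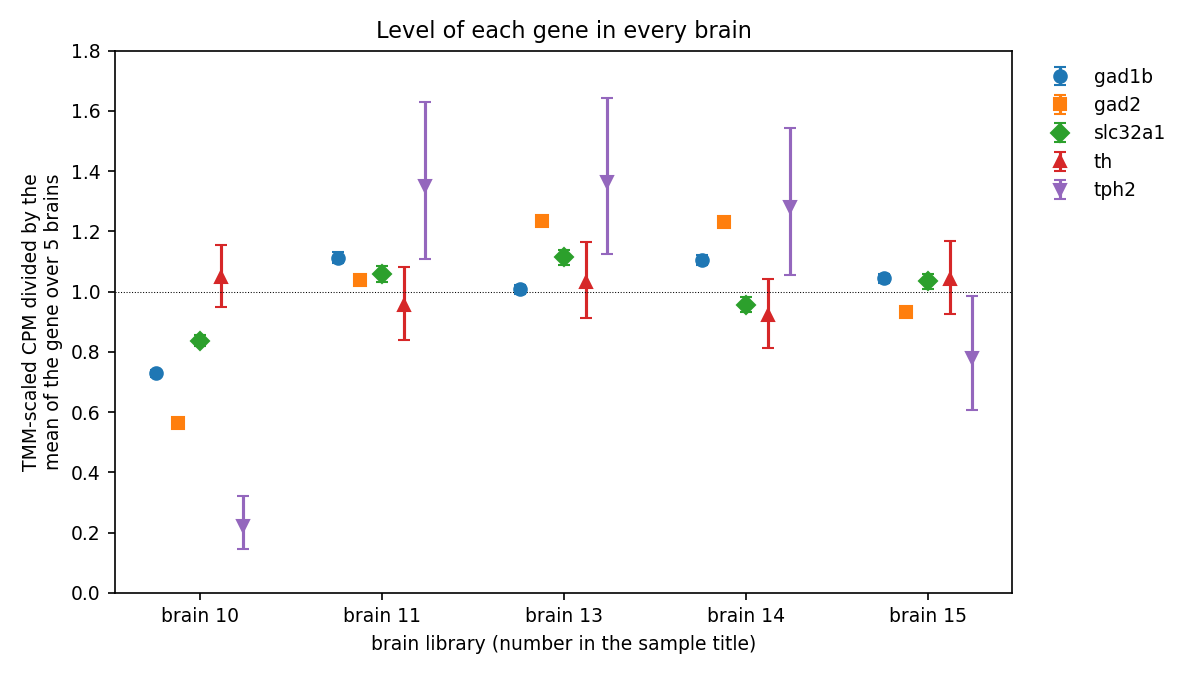
TMM-scaled CPM of each gene in each brain, divided by the mean of that gene over the 5 brains; bars are 95% counting intervals. In brain 10 tph2, gad2, gad1b and slc32a1 lie below their means while th does not, and th stays close to 1 in all 5 brains.

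Without brain 10 the coefficient of variation was 4.74% for gad1b, 13.4% for gad2, 6.24% for slc32a1 and 23.3% for tph2, against 6.02% for th. The median over all entries without brain 10 was 13.7%. In that set of 4 brains tph2 alone of the 5 genes varied more than the median entry. The RPKM of th divided by that of tph2 was 13.6 in brain 10 and 2.03, 2.18, 2.07 and 3.84 in brains 11, 13, 14 and 15, so its mean was 4.74 over 5 brains and 2.53 without brain 10.

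For each gene the catalogue entry with the most similar profile over the 15 libraries was looked up by Pearson's r of log2 CPM, as a description in which the contrast between tissues dominates. For slc32a1 it was Nofu_gene_3_0011550 (ENSDARG00000021351), with r = 0.996 and 133 ± 30.9 CPM in brain, against 0.6098 ± 0.299 CPM in liver and 0.341 ± 0.120 CPM in skin (SD, n = 5 each). For gad2 it was Nofu_gene_3_0016304 (ENSDARG00000009563), with r = 0.994 and 1126 ± 166 CPM in brain, 2.69 ± 1.38 in liver and 5.198 ± 1.98 in skin. The closest entries reached r = 0.993 for gad1b, 0.985 for th and 0.969 for tph2. Neither of the named entries carries a gene name in the files.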

How the data were processed

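RNA libraries from 5 brains, 5 livers and 5 skins were prepared, per the labels' protocols, with the TruSeq RNA kit. Per the submitters' processing notes, featureCounts 1.4.3-p1, TopHat2 2.0.6, Bowtie and CASAVA 1.8.2 were used, with no roles named. For genome build, annotation and strandedness of counting, the value is not given in the sources used here. The authors deposited raw read counts per catalogue entry, whole numbers whose totals differ between libraries, and RPKM values made from them, without pooling of samples. With 1 length per entry, 100% of RPKM values above 0 were reproduced from the counts (relative tolerance 1e-06). The 60 RPKM columns of other samples were not used. A further table of gene models carries no zebrafish identifier or gene name and was not used.

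The counts were fitted in R 4.3.3 with edgeR 4.0.16. Entries were kept by filterByExpr with a count minimum of 10, scaled by TMM and fitted together over all 15 samples with a term per tissue, and p-values had Benjamini-Hochberg adjustment over 16611 entries. SEs are the absolute log2 fold change over the root of F. The series' design text calls the 5 samples of a tissue biological replicates, so that p-values measure the spread between samples, and no 2 libraries of the same tissue were identical or agreed within sampling noise. The procedure was also run on simulated counts in which few genes changed. Those counts lack the large shifts between tissues seen here, so that run does not test the scaling. Alternatives were limma 3.58.1 on log2 RPKM with a pseudocount of 0.1 or 1, DESeq2 1.42.0, other scalings, no filter, pairwise fits, a replicate block and leaving out samples. Every gene of the selection found in the catalogue is named, and for the closest profiles the 2 entries with the highest r. The members and lists were chosen with earlier results of these data known. Lists of related transmitter genes and of cell type markers were to be matched by symbol, but 0 of the catalogue's zebrafish identifiers occur in the reference table of assembly NfurGRZ-RIMD1, so they were not counted. Sequences were not analysed here. Intervals are exact, at a 95% level, and library totals were 17653543 to 30801799 counts.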

Additional observations from a re-analysis of the deposited data

Results flagged for a closer look

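In each gene and tissue, and in each of the 3 ratios within brain, the highest and the lowest of 5 samples were checked for a gap to the nearest sample of more than 0.71 of the whole range. Of 18 such groups 3 held a sample that far from the rest, where chance gives 0.9. In liver 13 gad2 stood at 0.216 RPKM, against 0.107 to 0.139 RPKM in the other livers. This gap was 0.711 of the range, and the counting interval of liver 13 (0.149 to 0.304 RPKM) overlapped those of all other livers. In liver 15 slc32a1 stood at 0.286 RPKM, against 0.111 to 0.153 RPKM in the other livers. Its counting interval there (0.201 to 0.396 RPKM) overlapped those of livers 11, 13 and 14, but not that of liver 10 (0.0620 to 0.183 RPKM). In brain 10 the ratio of th to tph2 was 13.6, against 2.03 to 3.84 in the other brains.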

How the results depend on the processing

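Each of the 5 genes passed the test in the same direction for brain over liver in all 95 gene values under the alternatives, and for brain over skin in all 100. Those of th and tph2 were in part fixed by the filter, which these genes passed only through brain. All alternatives draw on the same 15 libraries, so these values are not independent checks. For liver over skin 77 of the gene values kept their direction and side of the threshold, 13 no longer passed, 2 newly passed and 6 turned in sign. The 2 were tph2 without scaling and th without skins 7 and 14, a setting added after those values had been seen. The count of genes called for liver over skin was 3, and 2 to 3 when single samples were left out. Over all entries the main fit called 10434, and 9957 to 10707 were called when single samples were left out. On log2 RPKM limma called 1 gene with a pseudocount of 0.1 and 0 with a pseudocount of 1, where 1 gene had an unadjusted p under 0.05, while DESeq2 called 3. Over all entries limma called 11259 and 10617 in these settings, and DESeq2 called 10857. Signs turned for gad1b, with log2 fold changes of -0.30 without scaling, -0.30 on RPKM with 0.1 added and -0.27 with 1 added, and for th, with -0.45, -0.16 and -0.036. Neither gene passed the test in these settings. Without scaling the share of called entries that were higher in the first tissue was 84.2% for brain over liver, 70.4% for brain over skin and 17.2% for liver over skin, against 51.2%, 49.6% and 46.6% with TMM. The mean ratio of gad1b to gad2 in brain was 0.853 by counts. With the title number as a replicate block, 5 genes were called for brain over liver, 5 for brain over skin and 1, slc32a1, for liver over skin (edgeR adjusted p = 0.00533), where gad2 stood at -1.13 (edgeR adjusted p = 0.0661) and gad1b at 0.56 (edgeR adjusted p = 0.124). Same-numbered brain and liver samples had deviations correlated at 0.0828 to 0.185, and 4 of the 5 brains were closest to their own number. For brain and skin the values were 0.0304 for number 13 and 0.261 for number 14. Brain 14 was closest to skin 14, and brain 13 to skin 7. For liver and skin the values were 0.0795 for number 13 and 0.0834 for number 14. Liver 13 was closest to skin 13, and liver 14 to skin 7. Since not every pair exceeded 0.1, the main fit and the permutation tests did not pair samples by number. If equal numbers do mark the same fish, both treat related samples as independent. The calls of gad1b and gad2 for liver over skin were lost with the block. Over all entries the calls for liver over skin fell from 10434 to 7991 with it. Only skins 13 and 14 share a number with another tissue, so comparisons with skin in the blocked fit rest on them. Effects of pairing and of fewer skins cannot be told apart there. Beyond the correlations above, whether equal numbers mark the same fish was not tested. The fit of liver and skin alone gave no value for th and tph2, which did not pass its filter. Depth limits th and tph2 in liver and skin, where 3 counts or fewer per library were common.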
